A study of Saccharomyces cerevisiae with 12 samples.

Results

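The genes described here encode the proteins of the mitochondrial ribosome of budding yeast, as far as their names show it. They were chosen by name alone, as the protein-coding genes called MRP, MRPL, MRPS or RSM followed by a number, and 66 of the 7126 genes in the table met that rule. The rule itself used no expression value, but it was set with earlier results of these data known. By the product names of RefSeq and textbook knowledge, 37 encode proteins of the large subunit and 27 encode proteins of the small subunit. The other two are RSM22, a methyltransferase-like factor of small subunit assembly, and MRP8, a gene of unknown function that was once classed as ribosomal from its sequence.

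The cells were of strain BY4741, a haploid laboratory strain that carries deletions in the marker genes HIS3, LEU2, MET17 and URA3, either wild type or with the genotype slt2, a mutant in the gene of the MAP kinase of the cell wall integrity pathway. Each strain was grown without the compound or with 100 µg/ml of poacic acid for 1 h, a plant-derived compound that binds the glucan of the cell wall (the labels spell it "poacid acid"). RNA depleted of ribosomal RNA was sequenced from 3 biological samples per strain, and each sample gave 1 untreated and 1 treated library. There were thus 4 groups of 3 libraries, 12 in all, and whether the slt2 strain was 1 clone was not stated.

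The mitochondrial ribosome translates the few proteins that the mitochondrial genome encodes, chiefly core subunits of the respiratory chain and of ATP synthase. Its RNAs and 1 small subunit protein, Var1, are made in the organelle, while nearly all its proteins are encoded in the nucleus, translated in the cytosol and imported. Some of them descend from the ribosomal proteins of bacteria and others exist only in mitochondria. Many of their mRNAs are bound by Puf3, an RNA-binding protein that recognises the RNA letters UGUANAUA after the stop codon and that is known to control the decay, localisation and translation of mitochondrial mRNAs with the carbon source.

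The Puf3 letters are shown first, because of the motifs searched they were the one that the genes shared most widely. The letters TGTANATA, in DNA, were searched on the sense strand in the 250 bases after the stop codon, in the RefSeq genome of build R64. They were found for 64 of the 66 genes (97.0%) and for 845 of 5915 other coding genes (14.3%), or 15.2% of all coding genes with such a window. The genes without them were RSM22 and MRP8, so that all 64 genes of ribosomal proteins held the letters. The following 30-base stretches show the sites of some genes on which the results turn, each read 5′ to 3′ on the gene's own strand, with the Puf3 letters in capitals. RSM19, MRPL28, MRPL8 and MRPL36 passed a test in at least 1 comparison, RSM10 and MRPL39 passed with the samples paired, and MRPS12 lies next to RSM19. MRPL33 also passed with the samples paired, but its sites, which begin 58 and 165 bases after the stop codon, are not printed. Both have a T 2 bases before the first letter.
RSM19, first site, chrXIV:695022-695051, minus strand: gggatctagTGTATATAgatttctagatga
RSM19, second site, chrXIV:694996-695025, minus strand: atgatatatcaTGTAAATAagatcaagcca
RSM19, last site, chrXIV:694968-694997, minus strand: cagactcgggcTGTATATAtatatatatat
MRPS12, chrXIV:694269-694298, minus strand: atacaacctttTGTAAATAgcaatgaccat
MRPL28, first site, chrIV:1386537-1386566, plus strand: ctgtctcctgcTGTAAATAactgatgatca
MRPL28, last site, chrIV:1386593-1386622, plus strand: atataattataTGTACATAgacatataaag
MRPL8, chrX:315714-315743, minus strand: gtgtattccctTGTAAATAtatagatgaca
MRPL36, first site, chrII:483850-483879, minus strand: ataaacagcctTGTATATAccgcaacatat
MRPL36, last site, chrII:483814-483843, minus strand: acgtctacataTGTATATAttgacaacgaa
RSM10, chrIV:540462-540491, plus strand: gatttcgtactTGTAAATAaaataggtgaa
MRPL39, chrXIII:251207-251236, minus strand: ttcatttatccTGTAAATAagtaatggata

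The 64 genes held 80 sites, and 14 of them held more than 1. The variable letter, N, was A in 36 sites, T in 25, C in 18 and G in 1. The sites began at a median of 55.5 bases after the stop codon, and 71 of the 80 (88.8%) began within 100 bases, against 66.2% of the 923 sites of other coding genes. A C stood 2 bases before the first letter of 51 of the 80 sites (63.8%), as in RSM10, MRPL8, MRPL39, the first site of MRPL36 and the second site of RSM19. The same was true of 24.1% of 914 sites of other genes, and C made up 16.9% of the bases in all windows. On the opposite strand of the same windows the letters were found for 14 members (21.2%) and 14.5% of other genes. In the promoter, from 250 bases before to 50 bases into the gene, the sense-strand letters were found for 6 members (9.09%) and 6.93% of other genes.

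Genes that act with the mitochondrial ribosome shared the site to differing extents. It was found for 13 of 13 mitochondrial tRNA synthetase genes, for 14 of 15 genes of the mitochondrial ribosome that carry other names, for 11 of 13 assembly factor genes, for 7 of 9 translation factor genes and for 12 of 16 genes of translational activators. The 1 gene without it among those with other names was PPE1, which encodes a methylesterase found with the small subunit. It was found for 8 of 35 nuclear genes of the respiratory chain, and for 8 of 138 genes of the cytosolic ribosome. These lists were compiled by name, and a match shows the letters, not binding.

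**Figure D1:**
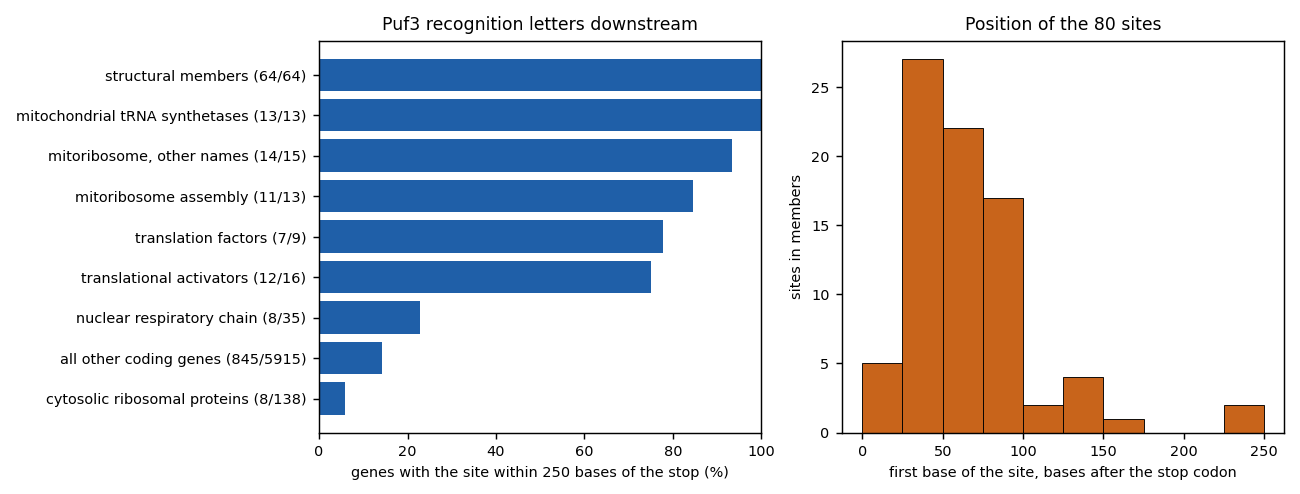
The left panel gives the share of genes, in percent, with the letters TGTANATA within 250 bases after the stop codon for the 64 ribosomal protein members, related lists and other coding genes. The right panel counts the 80 sites of the members by their distance from the stop codon in bases. The bar of the members reaches 100% and that of other coding genes 14.3%, and 71 of the 80 sites begin within 100 bases.

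For promoter motifs the shares of members and other genes lay closer together. On either strand of the promoter window, the Hap complex box CCAAT was found in 40.9% of members and 43.3% of other coding genes. The stress response element CCCCT was found in 16.7% and 21.7%. The letters AATTTT, a core of elements tied to rapid growth, were found in 40.9% and 51.9%. The letters GCGATGAG and AAAAATTTT, which mark genes of cytosolic ribosome biogenesis, were found in 4.55% and 3.94% and in 6.06% (4 members) and 414 of 5915 other genes (AAAAATTTT contains AATTTT). No test was made of these shares.

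The libraries held 3462651 to 10542488 reads (median 6671236.5), as recovered from the values, and the members took 0.189 to 0.264% of the reads in listed genes. A member had 17 to 705 reads in a library. The strain labels were checked with SLT2. In RPKM, the reads of a gene scaled to its length and to the depth of the library, it had a level of 46.0 ± 3.95 without the compound in wild type (mean ± SD, n = 3) and of at most 0.198 in any slt2 library. The share of reads in rRNA genes was 4.88 to 6.67% in the 6 slt2 libraries, 0.0932 to 0.745% in untreated wild type and 0.106 to 5.16% in treated wild type. Strain comparisons therefore also compare libraries with different rRNA shares, and the part of that in the values was not tested.

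In untreated wild type, the 66 genes sat close together at a moderate level. Their median was 33.1 RPKM, and 54 of them lay between 20 and 50 RPKM. The 75th percentile was 1.502 times the 25th, against 4.82 times for all coding genes of at least 1 RPKM, whose median was 24.1 RPKM. Related lists, also from 1 RPKM, sat as close or closer in part. The ratio was 1.36 for mitochondrial ribosome genes with other names and 1.36 for mitochondrial tRNA synthetases. It was 1.94 for cytosolic ribosomal proteins and 3.01 for nuclear respiratory chain genes. The 37 large subunit genes had a median of 33.0 RPKM and the 27 small subunit genes 33.1 RPKM. In each of the 12 libraries the ratio of these medians lay between 0.879 and 1.06. The nuclear respiratory chain genes had a median of 40.5 RPKM, the mitochondrial tRNA synthetases 12.01 RPKM and the cytosolic ribosomal proteins 1642 RPKM. All these levels are scaled to gene length. The aligner and the counting program were not given, so other differences between genes in mapping or counting could not be judged.

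The highest level belonged to MRPS12, which encodes a small subunit protein of the decoding site, with 124, 102 and 125 RPKM in the 3 untreated wild-type libraries (116.8 ± 12.9, mean ± SD). It was followed by RSM7, the relative of bacterial S7, with 80.4 ± 4.53 RPKM, and by MRPL20, a large subunit protein without a bacterial relative, with 72.2 ± 11.3 RPKM. RSM7 and MRPL20 overlapped, since MRPL20 read 84.7 RPKM in replicate 2. The lowest were the large subunit genes MRPL25 (13.4 ± 4.48 RPKM) and MRP49 (17.3 ± 3.87 RPKM) and the assembly factor gene RSM22 (17.9 ± 1.24 RPKM). The values of MRPL25 and MRP49 overlapped, and so did those of MRP49 and RSM22.

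**Figure D2:**
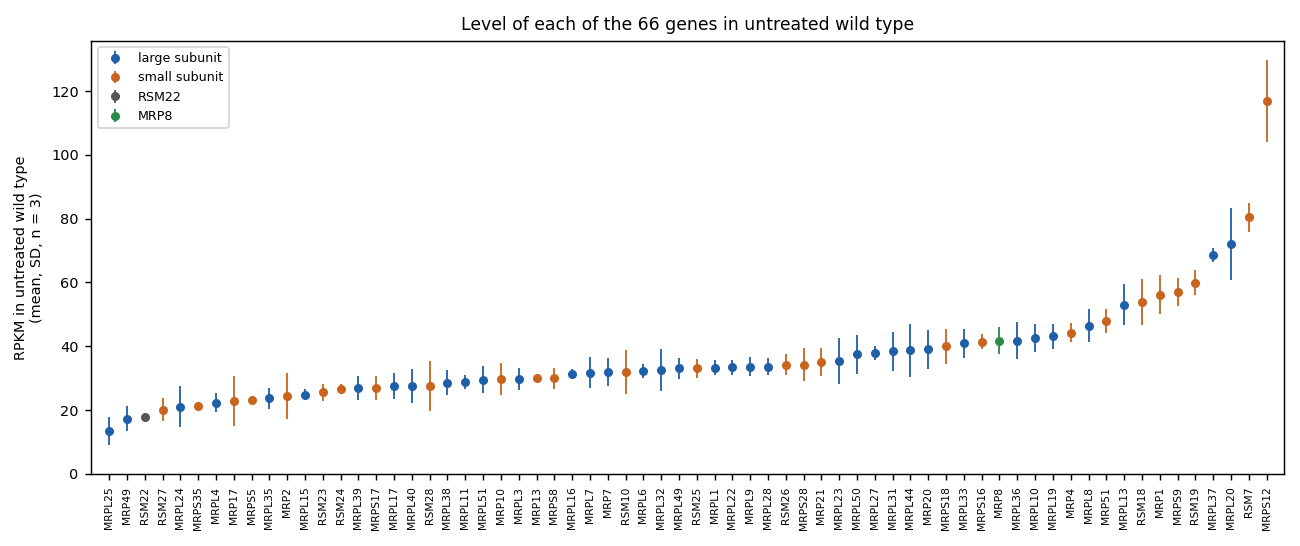
Each point is the mean RPKM of 1 of the 66 genes in untreated wild type, and each line its SD over 3 libraries. The genes are ordered by level and coloured by subunit. MRPS12 stands highest at 116.8 RPKM, and 54 genes lie between 20 and 50 RPKM with both subunits mixed.

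Few of these genes passed a test for a change with poacic acid in wild type, as was true of all tested genes. Of the 66, 2 rose (RSM19 and MRPL28) and 0 fell at an adjusted p under 0.05 (limma over all 6222 tested genes with Benjamini-Hochberg adjustment), while 5.83% of all tested genes passed, 3.87% upward and 1.96% downward. At an unadjusted p under 0.05, 4 members were higher and 1 lower, against 21.5% of all genes. With the libraries of each sample paired, the same 2 members passed, against 10.8% of all genes. The median log2 fold change was 0.03 over the members and 0.02 over all tested genes. The 95% interval of the fold change lay within a 2-fold change either way for all 66 members and for 83.2% of all genes. Within the large subunit the median was 0.03 and 1 of 37 passed, and within the small subunit it was 0.02 and 1 of 27 passed.

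RSM19, which encodes the relative of bacterial S19 in the head of the small subunit (YNR037C, chrXIV:695052-695327, minus strand), read 64.3, 58.4 and 57.0 RPKM in untreated and 79.0, 85.6 and 112 RPKM in treated wild type. Every treated library lay above every untreated one, and treated replicate 3 was the highest. The log2 fold change was 0.60 ± 0.14 (SE; adjusted p = 0.0258, limma). In slt2 it read 89.4, 83.3 and 72.1 RPKM without and 102, 96.3 and 119 RPKM with the compound, again without overlap (0.37, adjusted p = 0.141). The difference between the strains' responses was −0.23 (95% interval −0.67 to 0.20, adjusted p = 0.712). The wild-type call was lost when any of the untreated wild-type libraries or treated wild-type replicate 3 was left out (adjusted p 0.0550 to 0.101), or when only the wild-type groups were fitted (0.0819).

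MRPS12 begins 229 bases downstream of RSM19 on the same strand (YNR036C, chrXIV:694361-694822). It read 146, 123 and 199.7 RPKM in treated wild type, against 102 to 125 RPKM without the compound, and 1 treated library fell inside the untreated range (0.39, adjusted p = 0.169). In slt2 it read 185, 174 and 162 RPKM without and 180.4, 154 and 153 RPKM with the compound. The highest value of any member in any library was that of MRPS12 in treated wild-type replicate 3.

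MRPL28, a large subunit protein found only in mitochondria (YDR462W, chrIV:1386073-1386516, plus strand), read 33.6, 31.1 and 36.3 RPKM in untreated and 44.99, 42.5 and 50.3 RPKM in treated wild type. All treated libraries were higher, by a log2 fold change of 0.44 ± 0.11 (SE, adjusted p = 0.0385, limma). In untreated slt2 it already read 46.3, 48.1 and 46.2 RPKM, within the range of treated wild type, and with the compound 41.6, 42.9 and 37.4 RPKM. The slt2 response was −0.20 (adjusted p = 0.321), and the difference between the strains' responses was −0.64 (95% interval −0.98 to −0.30, adjusted p = 0.0655). The difference passed when treated wild-type replicate 2 was left out (adjusted p = 0.0427), a fit in which 2.64% of all genes passed. The wild-type call was kept in 3 of the 12 fits that each left out 1 library, those without untreated wild-type replicate 3, treated wild-type replicate 2 or treated slt2 replicate 3, and the highest adjusted p was 0.162. It was also lost with median-ratio scaling, without the intensity trend or with only the wild-type groups fitted (adjusted p 0.0517 to 0.148).

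The members with the lowest fold changes in wild type did not pass. MRPS8, the relative of bacterial S8, read 27.8, 33.7 and 28.3 RPKM without and 21.5, 24.5 and 24.2 RPKM with poacic acid, and the groups did not overlap (−0.34, adjusted p = 0.197). MRPL39 (−0.27) and RSM26 (−0.20) overlapped between the groups. In all, 4 members were higher and 1 lower with no overlap between the groups, against 13.2% and 9.39% of all tested genes.

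Treated wild-type replicate 2 stood apart from the other libraries for these genes, and not for them alone. The median over the members was 39.1 RPKM there and 27.4 to 34.2 RPKM in the other 11 libraries, and 33 of the 66 members had their highest value in it. Other coding genes with the Puf3 letters had a median of 26.9 RPKM there and 22.4 to 24.6 RPKM elsewhere. The respiratory chain genes had 44.0 RPKM there and 28.3 to 42.5 RPKM elsewhere. Without this library, the median wild-type fold change of the members went from 0.03 to −0.06 on the log2 scale and the members with a negative value from 23 to 40. The median over all tested genes went from 0.02 to −0.009, and their negative share from 46.5% to 51.0%. The calls without it were 4, with RSM26 lower and MRPS12 higher beside RSM19 and MRPL28, while 8.87% of all tested genes passed in that fit. Its rRNA share was 0.106%, the lowest of the treated libraries.

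**Figure D3:**
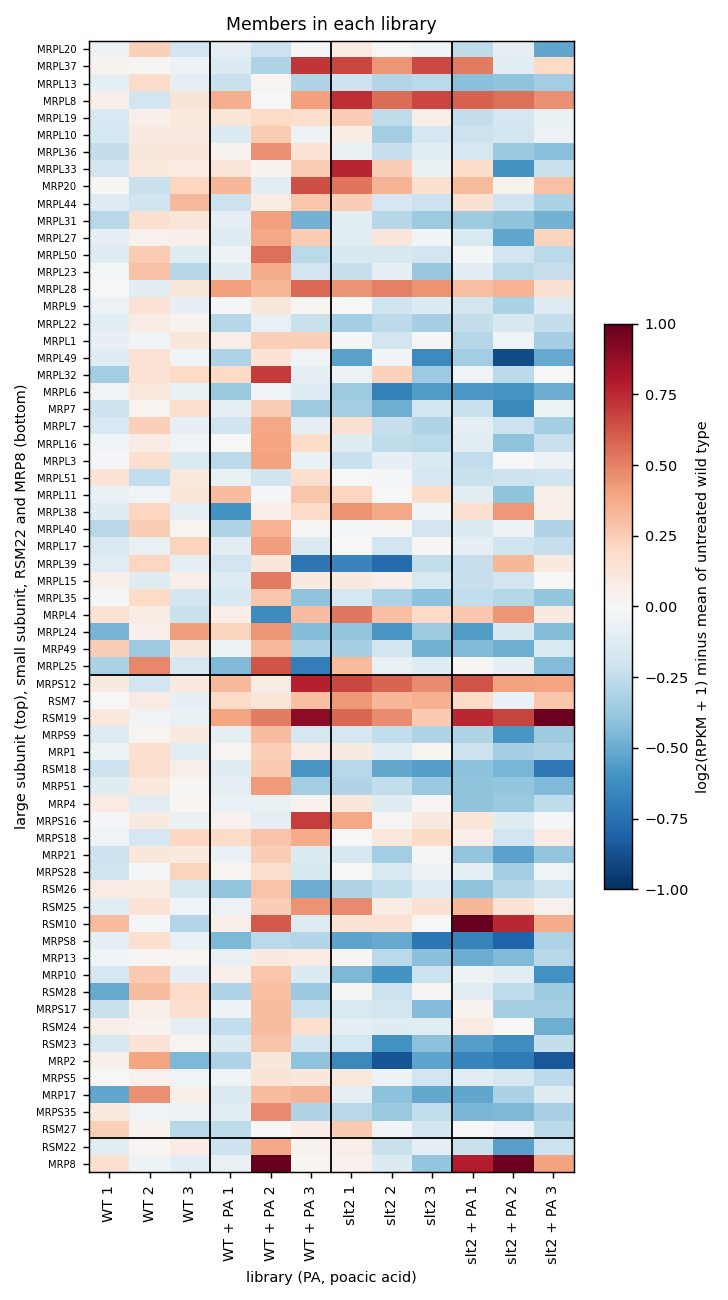
Each cell is log2(RPKM + 1) of a member in a library minus the mean of the 3 untreated wild-type libraries, with red for higher and blue for lower values. Rows are the 37 large subunit genes, the 27 small subunit genes, RSM22 and MRP8, each group ordered by level, and columns are the 12 libraries. The column of treated wild-type replicate 2 is mostly red, as 55 of the 66 members read above the untreated wild-type mean there. Untreated slt2 replicate 1 is mixed, with 31 members above that mean. The other slt2 columns are mostly pale blue, with 12 to 20 members above it, among them MRPL8, MRPL28, RSM19 and MRPS12.

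In slt2 cells, 1 member rose (MRP8) and 0 fell, against 8.45% of all tested genes, 5.29% upward and 3.17% downward. None of the 64 genes of ribosomal proteins passed (limma). At an unadjusted p under 0.05, 3 of them were higher and 4 lower, together 10.9%, against 22.4% of all tested genes. The median log2 fold change was −0.10 over the members and 0.03 over all tested genes, and 53 of the 66 members were negative, against 45.1% of all genes. The same count was 57 after median-ratio scaling, against 50.3% of all genes. It was 40 to 55 when 1 slt2 library was left out, against 41.8 to 47.3% of all genes. Medians were −0.10 in the large and −0.10 in the small subunit. The 95% interval lay within a 2-fold change for 63 members and for 81.2% of all genes. The values of the 3 other members, MRPL39, RSM10 and MRP8, are given next.

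MRP8 (YKL142W, chrXI:178515-179174, plus strand), whose transcript has been described as induced by cell wall stress, read 42.9, 37.8 and 31.4 RPKM in untreated and 72.5, 83.1 and 55.1 RPKM in treated slt2. The treated libraries all lay above the untreated ones (0.88 ± 0.25, SE, adjusted p = 0.0423, limma). In wild type it read 46.5, 40.2 and 38.5 RPKM without and 39.4, 85.2 and 42.1 RPKM with the compound. The wild-type mean was thus raised by replicate 2 alone (0.32, adjusted p = 0.502), and without that library the wild-type response could not be told from 0 (adjusted p = 0.944). The strains' responses differed by 0.56 (95% interval −0.19 to 1.32, adjusted p = 0.586). The slt2 call was lost when any untreated library of either strain, or treated slt2 replicate 1 or 2, was left out (adjusted p 0.0541 to 0.187), and without the intensity trend (0.0652).

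When the treated and untreated libraries of each sample were paired, 4 members passed in slt2 in place of 1, and 11.4% of all tested genes in place of 8.45%. RSM10, the relative of bacterial S10 (YDR041W, chrIV:539803-540414, plus strand), read 34.8, 34.9 and 31.5 RPKM without and 64.4, 53.8 and 40.9 RPKM with poacic acid, without overlap (0.62, adjusted p = 0.0911 unpaired and 0.0449 paired). MRPL39, the relative of bacterial L33 and the shortest member at 213 bases, read 16.5, 15.2 and 22.4 RPKM without and 22.6, 33.9 and 28.6 RPKM with it, on 20 to 65 reads per library (0.63, adjusted p = 0.0960 and 0.0469). MRPL33, the relative of bacterial L30, read 69.6, 48.4 and 38.9 RPKM without and 46.3, 26.6 and 34.7 RPKM with it, lower within each pair but with overlapping groups (−0.53, adjusted p = 0.155 and 0.0445). MRP8 passed both ways (adjusted p = 0.0423 and 0.0279).

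Other members at the low end of the slt2 response overlapped or missed the threshold. MRP4, the relative of bacterial S2, read 47.9, 40.6 and 44.4 RPKM without and 33.1, 33.9 and 36.9 RPKM with the compound, without overlap (−0.34, adjusted p = 0.0751). MRP4 overlaps YHL005C on the other strand. MRPL37 read 110, 93.7 and 109 RPKM without and 98.5, 63.6 and 78.7 RPKM with it (−0.39, adjusted p = 0.338). In all, 5 members were higher and 10 lower without overlap, against 18.2% and 12.8% of all tested genes.

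**Figure D4:**
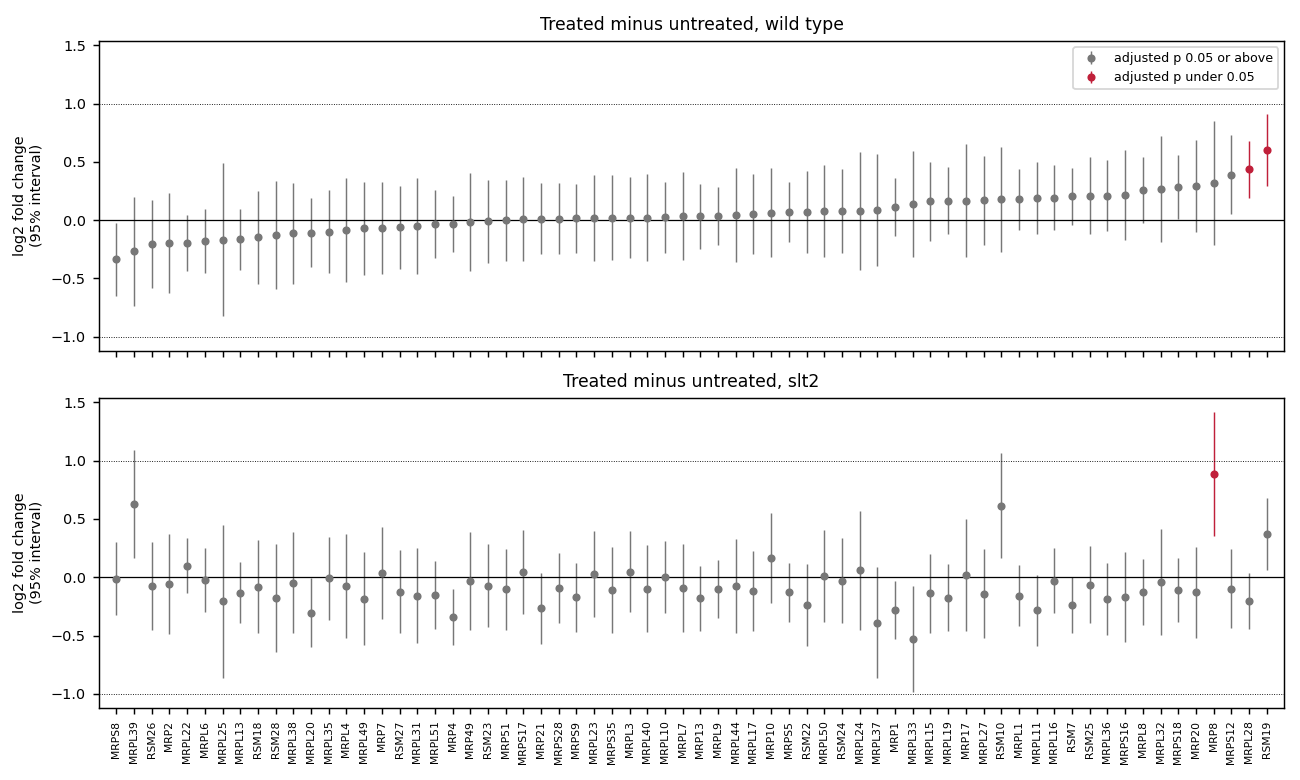
Points are the log2 fold changes of the 66 genes with poacic acid in wild type (upper panel) and slt2 (lower panel), in the order of the wild-type values, and lines are 95% intervals. Dotted lines mark a 2-fold change, and red points have an adjusted p under 0.05. RSM19 (0.60) and MRPL28 (0.44) are red in wild type and MRP8 (0.88) in slt2, and most points of the lower panel lie just below 0.

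The difference between the responses was tested for each gene. By limma 0 of the 66 passed, against 1.72% of all tested genes (0.723% upward and 0.996% downward), and at an unadjusted p under 0.05 there were 1 higher and 7 lower, against 11.9% of all genes. The median difference, slt2 minus wild type, was −0.12 over the members and 0.02 over all genes, with 48 members negative. Without treated wild-type replicate 2 it was −0.03 over the members, with 35 negative, and 0.05 over all genes. The lowest values were those of MRPL33 (−0.66, adjusted p = 0.396), MRPL28 (−0.64) and MRPS12 (−0.49, adjusted p = 0.410). MRPL39 had the highest (0.90, adjusted p = 0.207), followed by MRP8 (0.56) and RSM10 (0.44, adjusted p = 0.618). The 95% interval of the difference lay within a 2-fold change for 61 members and for 69.1% of all genes.

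Between the untreated strains, 1 member was higher in slt2 (MRPL8) and 0 were lower, against 1.75% of all tested genes, 0.884% upward and 0.868% downward. At an unadjusted p under 0.05, 6 members were higher and 8 lower, against 24.3% of all genes. The median, slt2 minus wild type, was −0.10 over the members and −0.08 over all genes. Of the members 46 were negative, against 59.6% of all genes. After median-ratio scaling the medians were −0.02 and −0.004. The negative members were then 34, against 50.6% of all genes, so the balance of signs depended on the scaling. MRPL8, the relative of bacterial L17 (YJL063C, chrX:315759-316475, minus strand), read 47.9, 40.7 and 50.7 RPKM in untreated wild type and 77.8, 68.6 and 74.3 RPKM in untreated slt2. The groups did not overlap, and the log2 difference was 0.66 ± 0.13 (SE, adjusted p = 0.0309, limma). With the compound it read 59.8, 46.3 and 61.7 RPKM in wild type and 70.2, 68.1 and 63.96 RPKM in slt2 (0.27, adjusted p = 0.231). The untreated call was lost without untreated wild-type replicate 1 or 2 or any untreated slt2 library (adjusted p 0.0734 to 0.135), and without the intensity trend (0.0541).

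MRPL8 shares 247 bases of upstream sequence with COA3, a gene read in the other direction that encodes a factor of cytochrome oxidase assembly. COA3 was picked after its values were seen. It read 66.6, 59.0 and 59.97 RPKM in untreated wild type and 115, 96.6 and 104 RPKM in untreated slt2, again with no overlap (0.76 ± 0.16, SE, adjusted p = 0.0379, limma). The call on COA3 was kept in 4 of 12 fits without 1 library, with adjusted p up to 0.160. COA3 was the only one of 127 tested neighbours of members to pass in this comparison (0.787%), against 1.75% of all tested genes. Of those neighbours, 38 lie head to head with a member. The shared sequence holds none of the Hap, rapid growth and stress response letters given above on either strand, and it is printed in lower case throughout, on the strand of MRPL8, whose first codon follows its last base.
MRPL8 and COA3 shared upstream sequence, chrX:316476-316722, minus strand: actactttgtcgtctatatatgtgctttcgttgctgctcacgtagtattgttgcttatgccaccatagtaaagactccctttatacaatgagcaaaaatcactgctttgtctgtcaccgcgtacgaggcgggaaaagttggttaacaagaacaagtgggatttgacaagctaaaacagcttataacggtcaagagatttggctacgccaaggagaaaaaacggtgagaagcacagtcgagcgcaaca

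Several other members differed between the untreated strains without passing. MRPS12 read 162 to 185 RPKM in slt2 and 102 to 125 RPKM in wild type (0.57, adjusted p = 0.0759), MRPL37 read 93.7 to 110 and 66.1 to 70.5 RPKM (0.59, adjusted p = 0.135), and MRPL28 read 46.2 to 48.1 and 31.1 to 36.3 RPKM (0.47, adjusted p = 0.0528). At the other end MRP2, the relative of bacterial S14, read 12.6 to 16.1 RPKM in slt2 and 17.1 to 31.4 RPKM in wild type (−0.68, adjusted p = 0.0832), and MRPS8 read 17.7 to 20.8 and 27.8 to 33.7 RPKM (−0.58, adjusted p = 0.0590). The strains' values did not overlap for any of these genes. In all, 7 members were higher and 15 lower in slt2 without overlap, against 11.3% and 23.8% of all tested genes. When treated wild-type replicate 3 was left out, which enters this comparison only through the shared estimate of the spread, 9 members and 9.71% of all tested genes passed.

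Between the treated strains, 1 member was lower in slt2 (MRPL36) and 0 were higher, against 8.21% of all tested genes, 3.99% upward and 4.23% downward. The median was −0.24 over the members and −0.06 over all genes, and 56 members were negative, against 58.9% of all genes. Over the members it was −0.17 without treated wild-type replicate 2 and −0.17 after median-ratio scaling, with 53 and 52 negative members. Over all genes it was −0.025 and 0.0035 in the same fits, with 53.8% and 49.4% negative. MRPL36, the relative of bacterial L31 (YBR122C, chrII:483970-484503, minus strand), read 42.6, 57.4 and 45.7 RPKM in treated wild type and 36.8, 31.9 and 30.7 RPKM in treated slt2. The groups did not overlap (−0.53 ± 0.14, SE, adjusted p = 0.0347, limma), and without the compound they did (35.03 to 45.3 and 35.2 to 39.6 RPKM). The call was lost without treated wild-type replicate 2, or treated slt2 replicate 2 or 3 (adjusted p 0.0897 to 0.131). It was also lost with 4 of 10 other settings (adjusted p 0.0506 to 0.0956).

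In the treated strains 1 member was higher and 20 were lower in slt2 without overlap, against 8.94% and 14.1% of all tested genes. At an unadjusted p under 0.05 the counts were 1 and 20, together 31.8% of the members against 22.9% of all genes. MRP2 (12.7 to 14.6 against 17.6 to 25.6 RPKM, −0.54, adjusted p = 0.123) and MRPL49, the relative of bacterial L21 (17.2 to 25.7 against 26.4 to 36.3 RPKM, −0.51, adjusted p = 0.116), were at the low end. RSM10 (0.53, adjusted p = 0.147), MRP8 (0.40, adjusted p = 0.359) and MRPL4, the relative of bacterial L29 (0.35, adjusted p = 0.334), were at the high end and overlapped between the strains. RSM22 read 11.9 to 15.3 RPKM in treated slt2 and 15.3 to 23.5 RPKM in treated wild type (−0.40, adjusted p = 0.162). When treated wild-type replicate 3 was left out, 9 members and 14.0% of all tested genes passed.

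**Figure D5:**
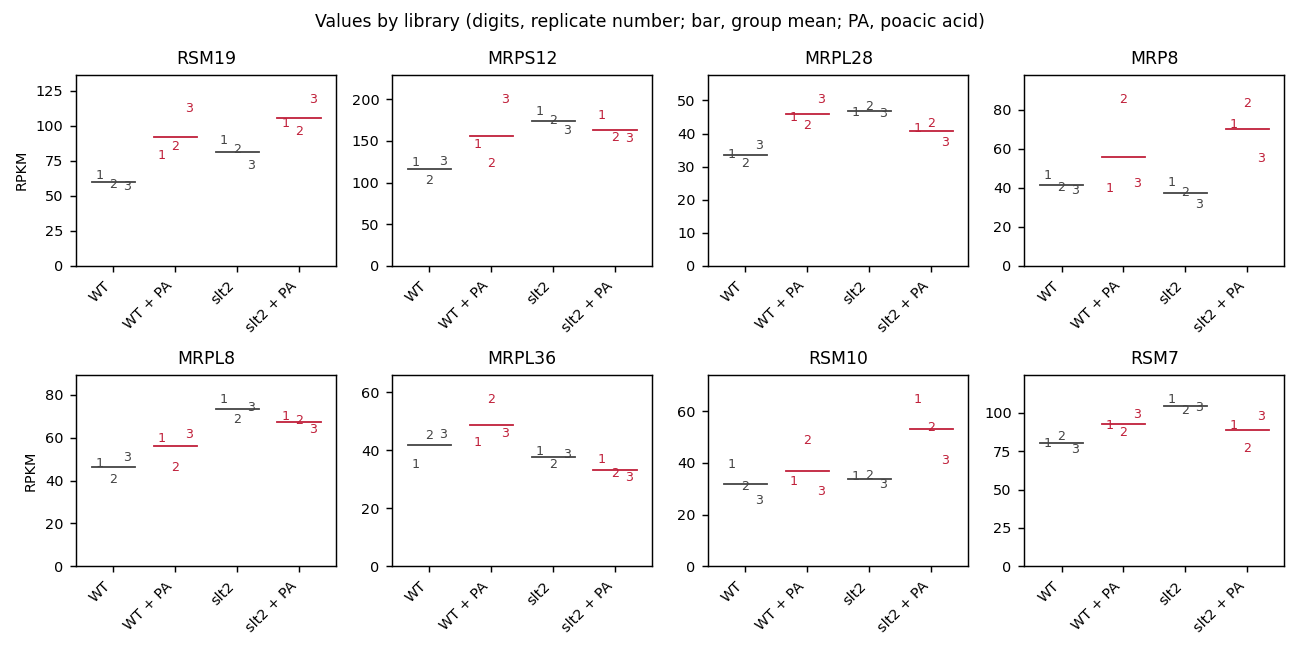
RPKM of 8 members in every library, with digits for the replicate number, bars for group means, grey for untreated and red for poacic acid. The values of RSM19 lie higher with the compound in both strains, those of MRPL28 lie higher in wild type and lower in slt2, and those of MRPL8 lie higher in untreated slt2 (68.6 to 77.8 RPKM) than in untreated wild type (40.7 to 50.7 RPKM). The wild-type mean of MRP8 with the compound rests on replicate 2 (85.2 RPKM).

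Over the 12 libraries the highest value of a member was a median of 1.78 times its lowest. The same median was 1.77 over the 1799 coding genes that read 20 to 50 RPKM in untreated wild type, and 15 members exceeded 2. The widest range was that of MRP8 (31.4 to 85.2 RPKM, 2.71 times). The narrowest of the named members was that of RSM7 (75.9 to 109 RPKM, 1.43 times), which overlaps YJR114W on the other strand. RSM7 read 80.4, 85.0 and 75.9 RPKM in untreated and 91.9, 87.5 and 99.2 RPKM in treated wild type. In slt2 it read 109, 102 and 103 RPKM without and 91.7, 76.9 and 97.8 RPKM with the compound. The groups did not overlap in either strain and lay in opposite order, while the difference of the responses was −0.44 (adjusted p = 0.251).

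RSM10 lies head to head with ENA1, which encodes a sodium pump of the plasma membrane, with 1335 bases between them. ENA1 was picked after its values were seen, and it has near-identical tandem copies, so its values are uncertain. It read 60.4, 60.9 and 34.1 RPKM in untreated slt2 and 366, 396 and 247 RPKM in treated slt2 (2.69, adjusted p = 7e-06, limma). In wild type it read 36.1 to 37.2 RPKM without and 54.04 to 64.3 RPKM with the compound, without overlap (0.67, adjusted p = 0.0805 unpaired and 0.00432 with the libraries of each sample paired). In the slt2 response 13 of the 127 tested neighbours passed (10.2%), against 8.45% of all tested genes. In the wild-type response 9 of them passed (7.09%), against 5.83% of all tested genes. With the libraries of each sample paired, 14 of the 127 passed in each response. The shares of all tested genes were then 11.4% in slt2 and 10.8% in wild type.

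For genes that work with the mitochondrial ribosome, the shares of all tested genes that passed stand beside the counts: 5.83% in wild type and 8.45% in slt2, or 21.5% and 22.4% at an unadjusted p under 0.05. Of 16 ribosomal genes with other names, 13 assembly factor genes and 13 tRNA synthetase genes, 0 passed in either strain's response (limma). At an unadjusted p under 0.05 there were 2, 1 and 3 in wild type, all higher, and 2, 0 and 0 in slt2. With the libraries paired, SWS2, a small subunit gene, passed in wild type (0.50, adjusted p = 0.0664 unpaired and 0.0308 paired). Among the 9 translation factor genes, MEF2, an elongation factor, rose in slt2 from 4.48 ± 0.391 to 9.14 ± 1.34 RPKM (0.88, adjusted p = 0.0315), and 0 passed in wild type. Among 16 translational activator genes, ATP22, which acts on the mRNA of an ATP synthase subunit, rose in wild type from 10.02 ± 1.33 to 18.8 ± 5.42 RPKM (0.82, adjusted p = 0.0309), and 0 passed in slt2. Among 4 genes listed for membrane insertion, OXA1 fell in slt2 from 92.0 ± 7.46 to 66.4 ± 2.78 RPKM (−0.46, adjusted p = 0.0256). OXA1 encodes the insertase that receives mitochondrial translation products. It was the only 1 of the 4 to pass in slt2, where the median of the list was −0.015, and 0 passed in wild type.

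Of 35 nuclear respiratory chain genes, 0 passed in wild type, with 4 at an unadjusted p under 0.05, and 2 rose in slt2, both of cytochrome bc1 subunits. QCR8 rose from 12.04 ± 1.33 to 21.6 ± 2.59 RPKM (0.79, adjusted p = 0.0108), and QCR10 from 3.63 ± 1.64 to 8.40 ± 1.35 RPKM (1.08, adjusted p = 0.0474). With the libraries paired, SDH1 (0.59, adjusted p = 0.0191) and ATP18 (−0.88, adjusted p = 0.0485) passed in wild type. PUF3 itself read 31.8, 29.8, 31.5 and 31.0 RPKM on average in the 4 groups and did not pass in any of the 5 comparisons. Other coding genes with the Puf3 letters had median log2 fold changes of 0.04 in wild type and 0.01 in slt2 (833 tested), and those without had 0.02 and 0.04 (4834 tested). Members with more than 1 site had medians of 0.12 and −0.16, and members with 1 site 0.01 and −0.10. The 138 cytosolic ribosomal protein genes had medians of −0.35 and −0.28, with 132 and 134 of them negative, 6 and 2 of which passed, or 65 and 28 with the libraries paired, all lower.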

How the data were processed

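The authors deposited 1 table of RPKM values for 7126 genes in 12 libraries, per the file headers, with gene coordinates that equal RefSeq R64 for 6036 of 6048 matched identifiers. Decimal commas were read as points. Per the submitters' processing notes the build was R64. Per the labels' protocols the libraries came from rRNA-depleted RNA and a directional kit. Further growth lasted 2 h by 1 protocol and 1 h with the compound by the other. The aligner, the counting program and its use of strand were not given in the sources used here, so members that overlap another gene (MRPL9, MRP4, RSM7, MRPL38, MRPL19 and MRPL51) are uncertain.

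Reads were recovered from the gene length and the smallest step of the values: 99.3 to 99.7% of values under 30 reads were within 0.03 of a whole read. Count tests were not run, as the values are normalized. Depth limits precision: 3 reads in a gene of 1 kb equal 0.285 to 0.866 RPKM, and the lowest value of a member was 7.66 RPKM. Replicates of a group differed by more than sampling noise.

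Genes of at least 1 RPKM in at least 3 libraries (6222, among them all 66 members) were fitted as log2(RPKM + 1) with limma 3.58.1 in R 4.3.3, with an intensity trend, robust variances and 1 mean per group over 12 libraries. Fold changes are on that scale. Every adjusted p is limma's with Benjamini-Hochberg adjustment over the 6222 genes, called under 0.05. The fit was run on simulated counts as a check of the code. The simulated libraries all had the same spread, unlike the real replicates, so the check does not bear on the calls made here. The 3 libraries of a group are separate biological samples per the series' design text.

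The series' design text says that each sample gave a treated and an untreated library, so equal numbers pair libraries within a strain. Their deviations correlated at −0.136, 0.275 and −0.035 in wild type and at 0.034, 0.232 and 0.335 in slt2. Paired values are given where they changed a call.

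Named members were those that passed, the 3 highest and 3 lowest fold changes of each comparison, the 3 highest and lowest levels, MRP8 and RSM22. From related lists, up to 3 genes that passed in a response were named. SWS2, SDH1 and ATP18, which passed when paired, were added after their values were seen. RSM7 is also shown for its responses. Members and lists were chosen with earlier results of these data known. Sequences and windows came from the RefSeq R64 genome (Python 3.11.15, pandas 2.3.3). Alternatives were other pseudocounts, filters, scaling, weights, gene sets, pairing and leaving out each library.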

Additional observations from a re-analysis of the deposited data

Results flagged for a closer look

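The responses of MRPL28 and RSM7 had opposite signs in the 2 strains, with no overlap between the treated and untreated libraries in either. How many of all tested genes show this pattern was not counted. Among all tested genes, groups without overlap made up 13.2% (higher) and 9.39% (lower) in wild type. The shares in slt2 were 18.2% and 12.8%. MRPL28 had a log2 fold change of 0.44 in wild type and −0.20 in slt2, a difference of −0.64 (adjusted p = 0.0655, limma with Benjamini-Hochberg adjustment). RSM7 had 0.21 and −0.24, a difference of −0.44 (adjusted p = 0.251). The difference was thus tested for both and passed for neither. In untreated slt2 both were above untreated wild type in every library, by 0.47 for MRPL28 (adjusted p = 0.0528) and by 0.38 for RSM7 (adjusted p = 0.0872).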

How the results depend on the processing

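No call reversed. Counts of calls were small and moved; parentheses give the share of all tested genes called. For the wild-type response the count of 2 became 1 without the intensity trend and robust variances (4.40%), 1 with median-ratio scaling (5.95%) and 0 with only the compared groups fitted (2.97%). For the slt2 response the count of 1 became 0 without trend (7.65%), 2 with only the compared groups (9.56%), 4 with library weights (18.3%) and 4 with the replicate block (11.4%). For the difference of responses 0 became 1 with library weights (4.64%). Between untreated strains 1 became 0 without trend (0.498%), 2 with median-ratio scaling (1.62%), 8 with only the compared groups (12.1%) and 13 with library weights (18.4%). Between treated strains 1 became 2 at a mean of at least 5 RPKM (8.99%), 0 without trend (7.31%), 0 with only the compared groups (5.42%) and 14 with library weights (22.1%). It was 0 with the replicate block (7.68%), which there joined equal numbers of different strains (correlations −0.164 to 0.0996) and is no pairing. The block changed no other count of members. The cause of these shifts was not tested.

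Leaving out 1 library at a time gave 0 to 4 calls and a median of −0.06 to 0.11 in wild type, 0 to 2 and −0.14 to −0.05 in slt2, and 0 to 1 and −0.22 to −0.03 for the difference. It gave 0 to 9 and −0.16 to −0.08 between untreated strains, and 0 to 9 and −0.30 to −0.17 between treated strains. The wild-type median thus changed sign: it was −0.06, and the median difference −0.03, without treated wild-type replicate 2, and it was −0.04 with library weights. Over all tested genes the wild-type median was −0.009 without that library and 0.0002 with library weights. The 4 wild-type calls came without treated wild-type replicate 2. RSM19 kept its call in 9 of 10 other settings, MRP8 in 9, MRPL8 in 9, MRPL28 in 7 and MRPL36 in 6. Depth limits the short and low members most: MRP49 and MRP2 had 17 reads in their shallowest library.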
